A study of Mus musculus with 12 samples.

Results

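The genes described here are 40 genes of DNA replication and S phase, listed by their role in copying the genome. The list was chosen with earlier results of these data known, so counts over it are descriptions and no test of the list was run. Of these, 38 had a probe set annotated to that gene alone and were analysed, out of 8251 genes on the array. Where a gene had several such probe sets, the one with the highest mean log2 intensity over all 12 arrays stood for it. Pole, the catalytic subunit of DNA polymerase epsilon, and Tyms, thymidylate synthase, were not analysed here.

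The samples were cell suspensions of the thymus of C57Bl/6 mice, each hybridised to an Affymetrix expression array. Leukemic cells (8 arrays, called leukemias 1 to 8) came from terminally ill mice of the genotype TEL-JAK2, a fusion of the transcription factor TEL (Etv6) with the tyrosine kinase JAK2. Neither their age nor the promoter that drives the fusion is stated in the sources used here. Thymocytes (4 arrays, called thymocyte arrays 1 to 4) came from wild-type mice aged 2 months, labelled normal. Nothing in the labels says that each array holds a separate animal, so a p-value covers the spread among these samples only, which may be technical, and precision is limited by how few arrays there are. The files held RMA intensities, given below as log2 values.

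DNA replication begins when the origin recognition complex, Cdc6 and Cdt1 load the ring of Mcm2 to Mcm7 on origins during G1. Kinases and Cdc45 then turn the ring into an active helicase. Polymerases alpha, delta and epsilon copy the strands, with Pcna as a sliding clamp and RPA on the single strands, while ribonucleotide reductase supplies the deoxynucleotides. Many of these genes are transcribed in a wave at the G1/S boundary under E2F factors. In the young thymus, dividing cells are mainly immature thymocytes, and most cells with both Cd4 and Cd8 are small and resting. In a cell suspension, fewer cycling cells and less RNA of a gene per cell cannot be told apart.

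DNA replication genes were lower in TEL-JAK2 leukemias than in thymocytes. Of the 38 genes, 18 fell, 0 rose and 20 did not pass the test (limma, Benjamini-Hochberg adjusted p under 0.05 over all 8251 genes). This is 47.4% of the genes lower, against 11.9% of all genes lower, and 0 higher, against 5.41% of all genes higher. At an unadjusted p under 0.05, 27 of the genes were lower and 1 was higher. The median log2 change over the 38 genes was -0.43, against 0.00 over all genes, and 33 of the 38 had a negative change. In 10 genes every leukemia lay below every thymocyte array, a pattern that 8.11% of all genes showed, and in 0 genes every leukemia lay above, against 4.21% of all genes. Only Rrm2 and Cdc6 fell at least 2-fold, as 1.38% of all genes did. The count of 18 was 11, 9 and 10 without thymocyte array 1, 2 or 4, and 11 when a macrophage marker score entered the model, with the genes' median change at -0.43, -0.41, -0.36 and -0.39. In every fit without 1 array Mcm3, Orc6, Cdc6, Pola1, Pcna, Rfc5, Rpa3, Rrm2 and Uhrf1 passed, and the other 9 genes that fell lost their call in 1 to 9 of the 12 such fits.

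**Figure D1:**
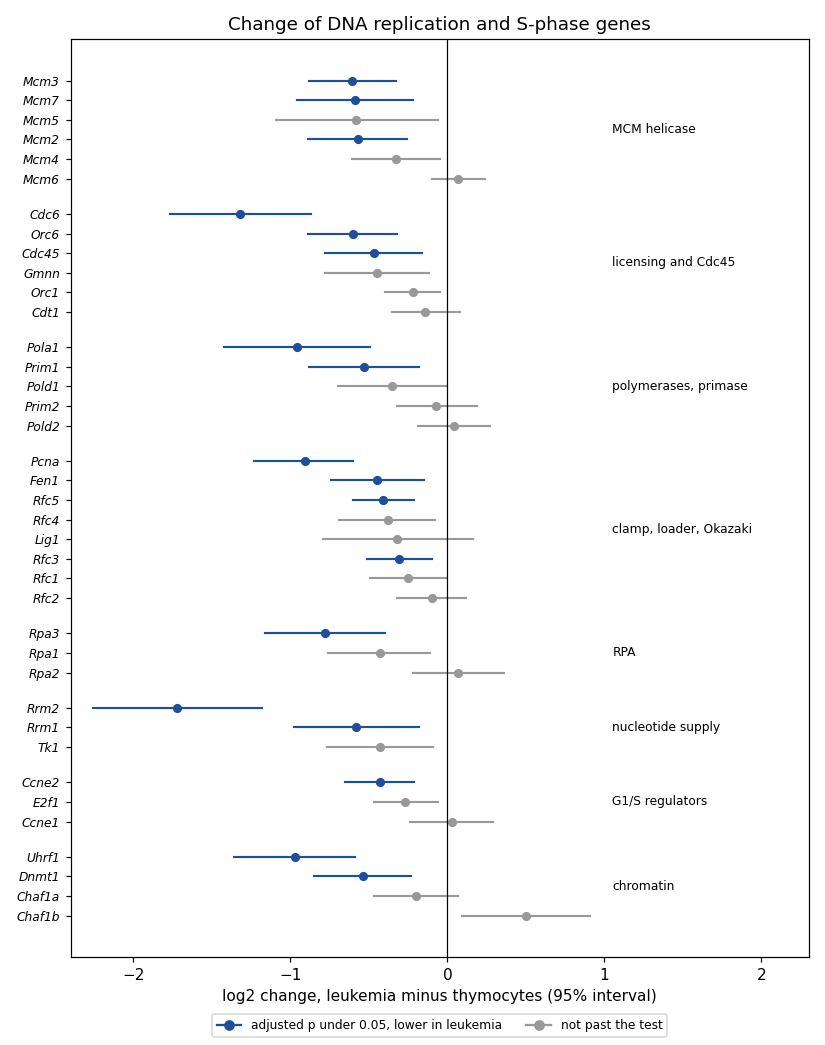
Log2 change of each of the 38 genes, leukemia minus thymocytes, with its 95% interval from limma, grouped by role. Genes in blue passed the test and were lower in leukemia, genes in grey did not pass. Rrm2 and Cdc6 lie farthest to the left at -1.72 and -1.32, and Chaf1b lies farthest to the right at 0.50.

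The promoters of the genes were searched for short motifs, which their choice did not use. RefSeq promoters (assembly GRCm38.p6, from 250 bases before the start of transcription to 50 after it) were found for 34 of the 40 genes, Tyms among them. They were searched on both strands for 4 words of the E2F consensus, TTTCCCGC, TTTCGCGC, TTTGGCGC and TTTGCCGC, which may overlap each other. At least 1 word stood in a promoter of 13 of 34 genes (38.2%), against 704 of 27025 genes in the table (2.6%). Among genes that fell it was 7 of 17, and among those that did not pass 6 of 16. The CCAAT box, searched as CCAAT on both strands, stood in 22 of 34 genes (64.7%), against 41.1% of genes in the table. It was present in 14 of 17 genes that fell and 8 of 16 that did not pass. The GC box, searched as GGGCGG on both strands, stood in 26 of 34 (76.5%), against 38.2% of genes in the table. It was present in 11 of 17 genes that fell and 14 of 16 that did not pass. The genes in the table are not limited to those on the array, and their promoters were not matched in base composition to those of the 34 genes. The matches describe letters in the window and say nothing of binding, and a word missing from a window says only that those letters are not there.

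The promoters shown are those of Cdc6, Mcm3 and Rfc3, which fell and hold a word, of Mcm5 and Mcm6, which hold overlapping words, and of Rrm2, which fell most and holds none. Each runs 5′ to 3′ on the strand of its gene, the E2F words are in capitals, and transcription starts at base 251 of each run.
Cdc6, chr11:98907901-98908200, plus strand: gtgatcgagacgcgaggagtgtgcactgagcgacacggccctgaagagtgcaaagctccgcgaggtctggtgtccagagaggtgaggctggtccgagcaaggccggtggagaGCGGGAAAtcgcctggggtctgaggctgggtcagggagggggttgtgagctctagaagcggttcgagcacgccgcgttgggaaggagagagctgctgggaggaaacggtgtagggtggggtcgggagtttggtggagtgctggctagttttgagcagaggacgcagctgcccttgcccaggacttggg
Mcm3, chr1:20820263-20820562, minus strand: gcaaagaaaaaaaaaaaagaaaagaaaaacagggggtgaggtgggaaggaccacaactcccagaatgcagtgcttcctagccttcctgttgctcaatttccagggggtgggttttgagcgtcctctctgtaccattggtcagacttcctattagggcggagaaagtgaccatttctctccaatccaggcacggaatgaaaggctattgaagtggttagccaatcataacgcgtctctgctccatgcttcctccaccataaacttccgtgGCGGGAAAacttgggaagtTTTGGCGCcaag
Rfc3, chr5:151651159-151651458, minus strand: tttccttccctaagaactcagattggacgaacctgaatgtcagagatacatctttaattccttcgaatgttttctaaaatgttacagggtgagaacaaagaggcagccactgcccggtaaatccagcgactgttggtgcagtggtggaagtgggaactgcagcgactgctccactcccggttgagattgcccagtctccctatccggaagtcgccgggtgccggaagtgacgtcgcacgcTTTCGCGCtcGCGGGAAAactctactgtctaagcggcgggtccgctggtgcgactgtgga
Mcm5, chr8:75109259-75109558, plus strand: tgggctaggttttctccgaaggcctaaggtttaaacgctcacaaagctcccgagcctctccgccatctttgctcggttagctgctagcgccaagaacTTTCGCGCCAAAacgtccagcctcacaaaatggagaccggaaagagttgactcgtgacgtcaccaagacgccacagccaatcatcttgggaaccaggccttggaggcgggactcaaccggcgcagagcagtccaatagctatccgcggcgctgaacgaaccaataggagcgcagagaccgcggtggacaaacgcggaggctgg
Mcm6, chr1:128359656-128359955, minus strand: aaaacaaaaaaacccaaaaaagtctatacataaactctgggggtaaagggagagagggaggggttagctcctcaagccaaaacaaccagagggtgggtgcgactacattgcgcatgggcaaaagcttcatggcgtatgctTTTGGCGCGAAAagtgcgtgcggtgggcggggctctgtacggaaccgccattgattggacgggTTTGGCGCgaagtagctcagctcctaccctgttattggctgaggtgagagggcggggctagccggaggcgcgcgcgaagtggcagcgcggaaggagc
Rrm2, chr12:24708004-24708303, plus strand: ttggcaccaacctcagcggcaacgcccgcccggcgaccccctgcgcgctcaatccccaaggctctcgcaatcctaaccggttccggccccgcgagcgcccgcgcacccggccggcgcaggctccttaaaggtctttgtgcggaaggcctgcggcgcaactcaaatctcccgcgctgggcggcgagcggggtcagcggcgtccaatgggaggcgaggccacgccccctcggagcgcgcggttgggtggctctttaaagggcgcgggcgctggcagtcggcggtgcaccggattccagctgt

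Counted from 1 at the 5′ end of the run, the word of Cdc6 starts at base 113. Those of Mcm3 start at bases 270 and 289, past the start of transcription. In Rfc3 the words start at bases 241 and 251, the second of them at the start of transcription. In Mcm5 a word at base 98 and one on the other strand at base 102 overlap, and in Mcm6 the same arrangement stands at bases 141 and 145, with a further word at base 204.

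The MCM helicase unwinds the DNA ahead of each fork. Of its 6 subunits, Mcm3, Mcm2 and Mcm7 fell. Mcm3 had a lowest value of 8.24, a median of 8.67 and a highest of 8.99 in leukemias, against 9.26, 9.30, 9.06 and 9.13 in thymocytes. The groups did not overlap, and the log2 change was -0.61 (SE 0.13, adjusted p = 0.00482). The probe set used can cross-hybridise by its name, and a second one without that mark gave the same change of -0.61. Mcm2 ranged from 7.85 to 8.84 around a median of 8.47 in leukemias, against 9.05, 9.07, 8.70 and 9.14 in thymocytes. Only leukemia 6 reached into the thymocyte range, and the change was -0.57 (SE 0.15, adjusted p = 0.0156). Mcm7 was 9.25 ± 0.32 (SD, n = 8) in leukemias and 9.84 ± 0.28 (SD, n = 4) in thymocytes (change -0.59, limma adjusted p = 0.0299).

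Mcm5 had a change as large as these, -0.58, but a wider spread (SE 0.24), and did not pass. Its lowest, median and highest values were 8.64, 9.59 and 9.96 in leukemias, against a range of 9.72 to 10.51 in thymocytes, and its dimmer second probe set gave 0.05. Mcm4 did not pass either (change -0.33, SE 0.13). Mcm6 was nearest to no change, with 3.79 to 4.18 in leukemias and 3.84 to 4.18 in thymocytes. Both ranges of Mcm6 lie below the 95th percentile of the non-mouse control probe sets (5.37 in leukemias and 5.34 in thymocytes, as means over arrays), so its probe set gives no usable level.

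Licensing genes fell in part. Cdc6, which loads the MCM ring at origins, had a lowest value of 5.76, a median of 6.53 and a highest of 7.13 in leukemias, against 7.84, 7.89, 7.60 and 7.97 in thymocytes. All leukemias lay below all thymocyte arrays, and Cdc6 fell to 40.1% of the thymocyte level (change -1.32, SE 0.21, adjusted p = 7.0e-04). Orc6, the smallest subunit of the origin recognition complex, had 6.78, 7.15 and 7.48 as its lowest, median and highest in leukemias, against 7.75, 7.78, 7.53 and 8.0 in thymocytes. It too separated the groups without overlap (change -0.60, SE 0.13, adjusted p = 0.00609). Cdc45, which joins the helicase at active forks, fell by 0.47 on the log2 scale (SE 0.14, adjusted p = 0.0394), with leukemias 1 and 6 inside the thymocyte range.

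Cdt1, the partner of Cdc6 in loading, changed least of the licensing genes. It ranged from 8.24 to 8.83 around 8.56 in leukemias, against 8.66, 8.69, 8.65 and 8.83 in thymocytes, and the interval of its change ran from -0.35 to 0.08. Geminin, the Cdt1 inhibitor encoded by Gmnn, had a change of -0.45 (SE 0.15) that missed the threshold at an adjusted p of 0.0607. Leukemia 1 stood highest for Gmnn, at 7.05 against a thymocyte range of 6.69 to 7.27, and without it the adjusted p was 0.0129. Gmnn still did not pass in 21 of 27 alternatives and passed in 6, 2 of them fits without 1 array. Orc1, the largest subunit of the origin complex, was no brighter than the controls in either group (4.19 ± 0.10, n = 8, in leukemias and 4.41 ± 0.16, n = 4, in thymocytes, SD).

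Among polymerases, Pola1 and Prim1, catalytic subunits of polymerase alpha and of its primase, fell. Pola1 had 5.04, 5.90 and 6.37 as its lowest, median and highest in leukemias, against 6.82, 6.99, 6.46 and 6.99 in thymocytes. The groups did not overlap and the change was -0.96 (SE 0.21, adjusted p = 0.00691). Prim1 ranged from 5.69 to 6.61 around a median of 6.11 in leukemias, against 6.63, 6.59, 6.43 and 7.08 in thymocytes, with leukemias 1 and 6 in the thymocyte range (change -0.53, SE 0.16, adjusted p = 0.0378). Prim2, the other primase subunit, had a change of -0.07 (SE 0.12) and did not pass. Of polymerase delta, which extends the lagging strand, the catalytic subunit Pold1 had a change of -0.35 (SE 0.16) and did not pass, and Pold2 ranged from 8.24 to 8.85 in leukemias and from 8.41 to 8.68 in thymocytes (change 0.04, interval -0.19 to 0.27). The probe set of Pold2 is not of the plain _at type, as its name ends in _r_at.

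The sliding clamp Pcna fell to 53.1% of the thymocyte level. It had 8.36, 8.86 and 9.31 as its lowest, median and highest in leukemias, against 9.71, 9.79, 9.64 and 9.97 in thymocytes, with no overlap (change -0.91, SE 0.15, adjusted p = 7.8e-04). Of the subunits of replication factor C, which loads the clamp, Rfc5 and Rfc3 fell. Rfc5 had 7.59, 7.83 and 8.05 in the same order in leukemias, against 8.18, 8.31, 8.13 and 8.40 in thymocytes, again with no overlap (change -0.41, SE 0.09, adjusted p = 0.00654). A dimmer probe set of Rfc5 gave 0.01. Rfc3 fell by 0.31 (SE 0.09), but lost its call in 9 of 12 fits that each left out 1 array. Rfc4, Rfc1 and Rfc2 had changes of -0.38, -0.25 and -0.10 and did not pass, and Rfc2 ranged from 8.43 to 8.90 in leukemias and from 8.67 to 8.86 in thymocytes.

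Okazaki fragments are trimmed by the flap endonuclease Fen1 and joined by the ligase Lig1. Fen1 fell by 0.45 (SE 0.14, adjusted p = 0.037), with 6.50 ± 0.27 (SD, n = 8) in leukemias and 6.95 ± 0.16 (SD, n = 4) in thymocytes. Lig1 was spread widely over leukemias, with 7.25, 7.97 and 8.61 as its lowest, median and highest, against 8.18, 8.37, 8.0 and 8.67 in thymocytes. Its change of -0.32 (SE 0.22) did not pass, and leukemias 1, 6 and 7 were among the thymocyte values.

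The nucleotide-supply genes held the largest change of all 38. Rrm2, the small subunit of ribonucleotide reductase, whose level follows S phase, had 6.25, 7.23 and 7.68 as its lowest, median and highest in leukemias, against 8.58, 8.91, 8.66 and 9.24 in thymocytes. Every leukemia lay well below the thymocyte range, and Rrm2 fell to 30.3% of the thymocyte level (change -1.72, SE 0.25, adjusted p = 4.0e-04). The large subunit Rrm1 had 7.69, 8.26 and 8.65 in the same order in leukemias, against 8.61, 8.87, 8.55 and 9.22 in thymocytes. Its change of -0.58 (SE 0.19) passed narrowly at an adjusted p of 0.0477, and it lost the call in 9 of 12 fits without 1 array. Adjusted over all probe sets instead, its p was 0.0532. A second probe set of Rrm1, no brighter than the controls, gave 0.01. Thymidine kinase Tk1 ranged from 8.17 to 8.96 around 8.53 in leukemias, against 8.77, 8.96, 8.85 and 9.32 in thymocytes, and its change of -0.43 (SE 0.16) did not pass. A dimmer second probe set of Tk1 gave 0.16 (SE 0.11).

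**Figure D2:**
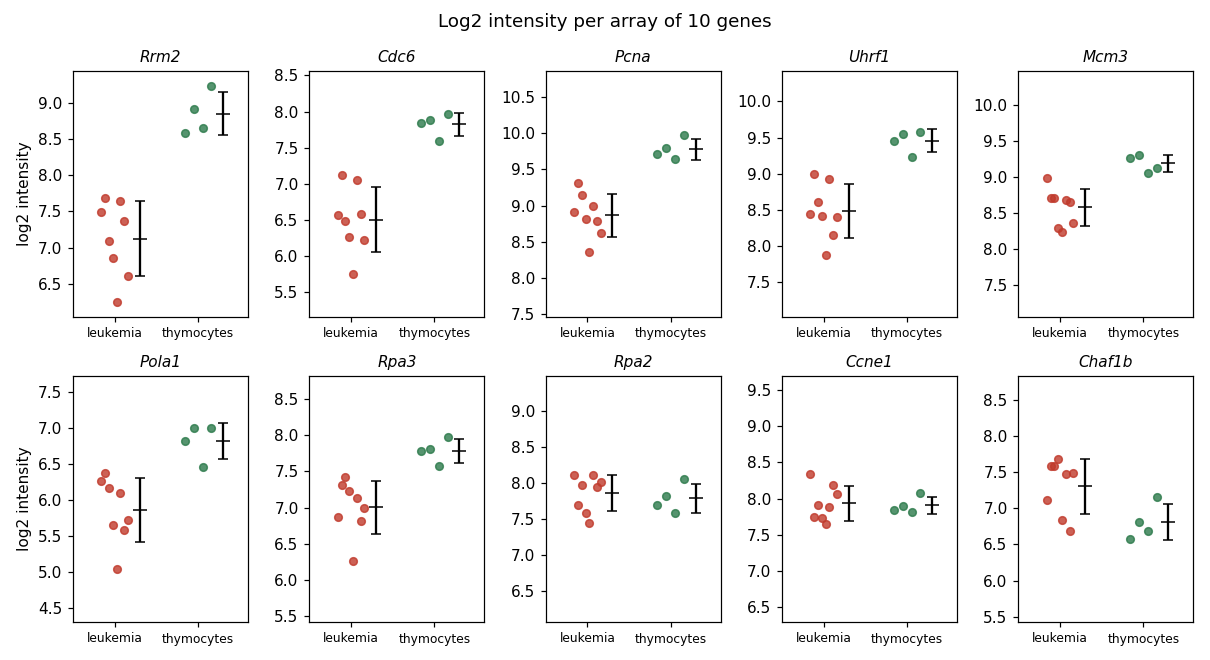
Log2 intensity of 10 genes in each leukemia (red, 8 arrays) and each thymocyte array (green, 4 arrays), with the mean and SD as black bars beside the points. All panels span the same number of log2 units. In the panels of Rrm2, Cdc6, Pcna, Uhrf1, Mcm3, Pola1 and Rpa3 the groups do not overlap, and in those of Rpa2, Ccne1 and Chaf1b they do.

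RPA, the single-strand binding protein, is a trimer, and of its 3 genes Rpa3 fell. Rpa3, its small subunit, had 6.26, 7.06 and 7.43 as its lowest, median and highest in leukemias, against 7.78, 7.81, 7.57 and 7.98 in thymocytes. The groups did not overlap (change -0.78, SE 0.18, adjusted p = 0.00751). Rpa2, the middle subunit, had 7.45, 7.96 and 8.11 in the same order in leukemias, against 7.69, 7.82, 7.59 and 8.06 in thymocytes, and its change of 0.07 (interval -0.22 to 0.36) did not pass. The large subunit Rpa1 had a change of -0.43 (SE 0.15) that did not pass.

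Subunits of the same complex were set side by side by taking the log2 difference of both genes on each array, in 6 pairs from RPA, ribonucleotide reductase, primase and chromatin assembly factor 1. These pairs were chosen after the values were seen, so the differences are given as descriptions, and an exact test run on them is not used. The change of Rrm2 minus that of Rrm1 was -1.15, and it ran from -1.19 to -1.09 over 13 alternatives, which left out each array in turn or used quantile normalization. The change of Rpa3 minus that of Rpa2 was -0.85, from -0.92 to -0.79 over the same alternatives. For both pairs the difference lay below every thymocyte array in 8 of 8 leukemias. Prim2 minus Prim1 gave 0.47 (0.36 to 0.51 over these alternatives) and Rpa2 minus Rpa1 gave 0.50 (0.42 to 0.55). Both lay above every thymocyte array in 8 of 8 leukemias. Chaf1b minus Chaf1a gave 0.70 (0.61 to 0.83), above every thymocyte array in 7 leukemias and below in 1. Rpa3 minus Rpa1 gave -0.35 (-0.41 to -0.25), below every thymocyte array in 4 leukemias and above in 1. Probe sets differ in how steeply their intensity follows the RNA, and the part of this in these differences was not tested.

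Of the 3 regulators of the G1/S step, Ccne2 fell, and Ccne1 and E2f1 did not pass. Cyclin E1, which activates Cdk2 and is encoded by Ccne1, ranged from 7.65 to 8.34 around 7.90 in leukemias, against 7.84, 7.90, 7.82 and 8.08 in thymocytes (change 0.03, interval -0.24 to 0.29). Ccne2, which encodes cyclin E2, had 2.74, 3.02 and 3.21 as its lowest, median and highest in leukemias, against 3.33, 3.57, 3.13 and 3.58 in thymocytes. Its change of -0.43 (SE 0.10, adjusted p = 0.0106) passed, but all of its values lie below the control level. E2f1, a transcription factor of the G1/S genes, had a change of -0.27 (SE 0.10, adjusted p = 0.0755) on a probe set that can cross-hybridise. Its other, dimmer probe set gave -0.46 (SE 0.11) with an adjusted p of 0.0132 over all probe sets.

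Of the chromatin genes that act behind the fork, 2 of 4 fell. Uhrf1, which reads hemimethylated DNA, had 7.87, 8.44 and 9.0 as its lowest, median and highest in leukemias, against 9.46, 9.55, 9.23 and 9.58 in thymocytes. It fell to 50.9% of the thymocyte level without overlap (change -0.97, SE 0.18, adjusted p = 0.00194). Dnmt1, the maintenance methyltransferase that Uhrf1 recruits, had 8.55, 9.17 and 9.45 in the same order in leukemias, against 9.61, 9.74, 9.53 and 9.81 in thymocytes. It too separated the groups (change -0.54, SE 0.14, adjusted p = 0.0185), while a second probe set of Dnmt1 gave 0.13 and did not pass.

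Chromatin assembly factor 1 places new histones behind the fork. Its large subunit gene Chaf1a ranged from 6.45 to 7.06 around 6.69 in leukemias, against 6.80, 6.92, 6.86 and 7.22 in thymocytes, and did not pass (change -0.20, SE 0.12). Chaf1b, its middle subunit, had the highest change of the 38 genes, 0.50 (SE 0.19, adjusted p = 0.0911). Its lowest, median and highest values were 6.68, 7.48 and 7.68 in leukemias, against 6.58, 6.81, 6.69 and 7.15 in thymocytes. Leukemias 2, 3, 4, 6 and 8 lay above all thymocyte arrays, while leukemias 1, 5 and 7 lay among them. In 23 of 27 alternatives Chaf1b still did not pass, and in 4 it passed as higher. It passed without leukemia 7 (0.59, adjusted p = 0.0234) and within the 7 arrays whose titles have 4 digits (0.73, adjusted p = 0.0308). It also passed with array weights (0.50, adjusted p = 0.0414) and with macrophage markers in the model (0.78, adjusted p = 0.00273). Within the arrays of the other title class its change was 0.04 (adjusted p = 0.99), and with the class as a block it was 0.51 (adjusted p = 0.1).

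**Figure D3:**
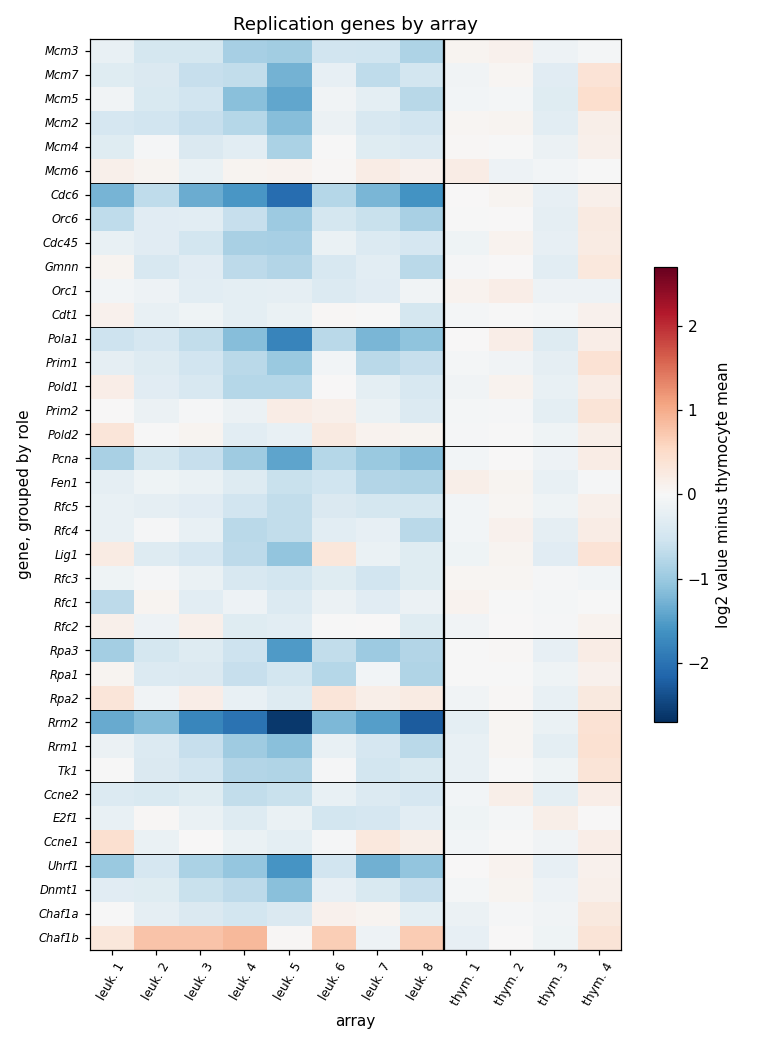
Log2 value of each gene minus its thymocyte mean, in 8 leukemias (left of the black line) and 4 thymocyte arrays (right of it), with genes in rows grouped by role. Blue is lower and red is higher than the thymocyte mean. Leukemia 5 is the bluest column, and Chaf1b is the row with the most red in leukemias.

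The leukemias differed among themselves in how low these genes lay. The mean over the 38 genes of the log2 value minus the thymocyte mean was -0.81 in leukemia 5, -0.60 in leukemia 4, -0.54 in leukemia 8, -0.43 in leukemia 7 and -0.38 in leukemia 3. It was -0.27, -0.24 and -0.23 in leukemias 2, 6 and 1, and it ran from -0.18 to 0.19 in thymocyte arrays. All leukemias lay below all thymocyte arrays on this mean, but leukemia 1 and thymocyte array 3 were only narrowly apart. Leukemia 5 held the lowest leukemia value for 23 of the 38 genes, and leukemia 1 the highest for 14.

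Counted gene by gene, 35 of the 38 genes lay below every thymocyte array in leukemias 4 and 5. The count was 32 in leukemia 8, 30 in leukemia 3, 26 in leukemia 2, 24 in leukemia 7 and 18 in leukemias 1 and 6. Over all genes, the share below every thymocyte array was 30.9% in leukemia 4, 32.7% in leukemia 5, 31.6% in leukemia 8 and 28.5% in leukemia 3. It was 26.5% in leukemia 2, 40% in leukemia 7, 32.2% in leukemia 1 and 40.1% in leukemia 6. The count of 18 in leukemia 6 thus lay nearest to the share over all genes. The within-group SD of these genes had a median of 0.28 in leukemias and 0.18 in thymocytes, against 0.17 and 0.11 over all genes.

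Markers of other cells differed between the same arrays. The mean score of 26 macrophage markers was 1.26 in leukemia 7, 1.04 in leukemia 5 and 0.72 in leukemia 3, against -0.09 to 0.12 in thymocytes. It was -0.13 to 0.31 in the other 5 leukemias. Among these were leukemias 4 and 8, next to leukemia 5 in low replication genes, with -0.13 and 0.06. Of these markers 2 rose (7.69%, against 5.41% of all genes), 0 fell and 8 were no brighter than the controls in either group. Their summed intensity ran from 4438 to 12262 in leukemias and from 3979 to 5091 in thymocytes. With that score as a covariate, 10 of the 18 genes that fell still passed, among them Rrm2 (-1.62), Cdc6 (-1.20), Pcna (-0.83) and Uhrf1 (-0.78). Mcm2, Mcm7, Cdc45, Prim1, Rfc3, Fen1, Rrm1 and Dnmt1 no longer passed, with changes from -0.51 for Rrm1 to -0.25 for Rfc3. Rpa1, not past without the score, passed as lower with it (-0.57, adjusted p = 0.0273). Of 13 markers of thymocytes with both Cd4 and Cd8, 8 fell (61.5%, against 11.9% of all genes), with a median change of -1.72. Their summed intensity ran from 4190 to 16851 in leukemias and from 22002 to 23410 in thymocytes. Cd8a and Cd8b1, the 2 brightest of them, had means of 11.13 and 11.59 in leukemias and 11.58 and 12.07 in thymocytes. Their changes of -0.45 and -0.49 were the smallest of the 13 and did not pass. Cd8a ran from 10.18 to 11.95 in leukemias, against 11.50 to 11.66 in thymocytes. Cd4 fell, with a change of -1.89 (SE 0.31), and all 13 markers had a negative change. B cell markers summed to 2750 to 3668 in leukemias and 2683 to 3046 in thymocytes (0 of 11 past the test). The brightest of them, Ighm, changed by -0.03. The mean score of these markers was -0.01 in leukemia 6 and 0.15 to 0.59 in the other leukemias, against -0.03 to 0.01 in thymocytes. It was highest in leukemias 7, 5 and 3, as the macrophage score was. Erythroid markers summed to 1176 to 6327 in leukemias and 3431 to 6967 in thymocytes (1 of 8 lower, 12.5%). Neutrophil markers summed to 602 to 828 in leukemias and 824 to 1017 in thymocytes (4 of 12 lower, 33.3%). Those of stroma or endothelium summed to 1530 to 2050 in leukemias and 1734 to 1918 in thymocytes (2 of 18 lower, 11.1%, and 1 higher, 5.56%). The macrophage covariate covers 1 kind of cell, and its score varies mainly among leukemias, so it does not test the cell mixture. The part of the cell mixture in the replication genes was not tested. RNA quality, as the log2 difference of the 3′ and 5′ actin controls, ran from 0.39 to 0.54 in leukemias and from 0.36 to 0.59 in thymocytes.

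Other genes of the same processes were taken from lists that do not hold the 38 genes. Of 24 further replication genes 7 fell (29.2%) and 2 rose (8.33%), against 11.9% and 5.41% of all genes. Their median change was -0.23. Pold3, a subunit of polymerase delta, had a change of -0.61 (SE 0.08), the origin-firing kinase gene Cdc7 one of -0.96 (SE 0.14) and the fork-protection gene Timeless one of -0.60 (SE 0.09). The risers were Pold4 (0.55) and the RNase H2 gene Rnaseh2a (0.33). Thus among genes of polymerase delta Pold3 fell and Pold4 rose, while Pold1 and Pold2 did not pass.

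Of 16 further genes of nucleotide metabolism 3 fell (18.8%) and 2 rose (12.5%), against 11.9% and 5.41% of all genes. Their median change was -0.04. The count of 3 was 1 with quantile normalization and 0 without thymocyte array 1. The deoxycytidine kinase Dck had a change of -1.23 (SE 0.32), with 8.89 to 10.83 in leukemias and 11.05 to 11.31 in thymocytes. The risers were the mitochondrial thymidine kinase Tk2 (0.69, SE 0.11) and Rrm2b, the reductase subunit used outside S phase (0.31, SE 0.07). Rrm2b had 6.95 ± 0.11 (SD, n = 8) in leukemias and 6.64 ± 0.05 (SD, n = 4) in thymocytes, a direction opposite to that of Rrm2. The probe sets of Dck and Rrm2b can cross-hybridise by their names.

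Of 15 further genes of the E2F and RB network 8 fell (53.3%) and 1 rose (6.67%), against 11.9% and 5.41% of all genes. Their median change was -0.39. E2f8, a repressor of the E2F family, had a change of -1.20 (SE 0.11), the RB relative Rbl1 one of -1.04 (SE 0.14) and Lin9, of the complex that regulates cell cycle genes, one of -0.69 (SE 0.09). The probe set of E2f8 is not of the plain _at type, as its name ends in _r_at. The riser was Cdkn1a, the CDK inhibitor p21 (0.32). Of 13 genes of histone deposition and chromatin 9 fell (69.2%) and 0 rose. Among them were Cbx5 (-0.77), the histone mRNA binding gene Slbp (-0.65) and Hmgb2 (-0.91, on a probe set whose name ends in _r_at). Of 34 mitosis genes 27 fell (79.4%) and 0 rose, with a median of -0.86, and the count was 18 without thymocyte array 4. The replication and mitosis lists were not tested against each other. The mean mitosis score of the leukemias was -1.31 in leukemia 5 and -0.39 and -0.41 in leukemias 1 and 6, so the same leukemias stood lowest and highest as for replication genes.

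**Figure D4:**
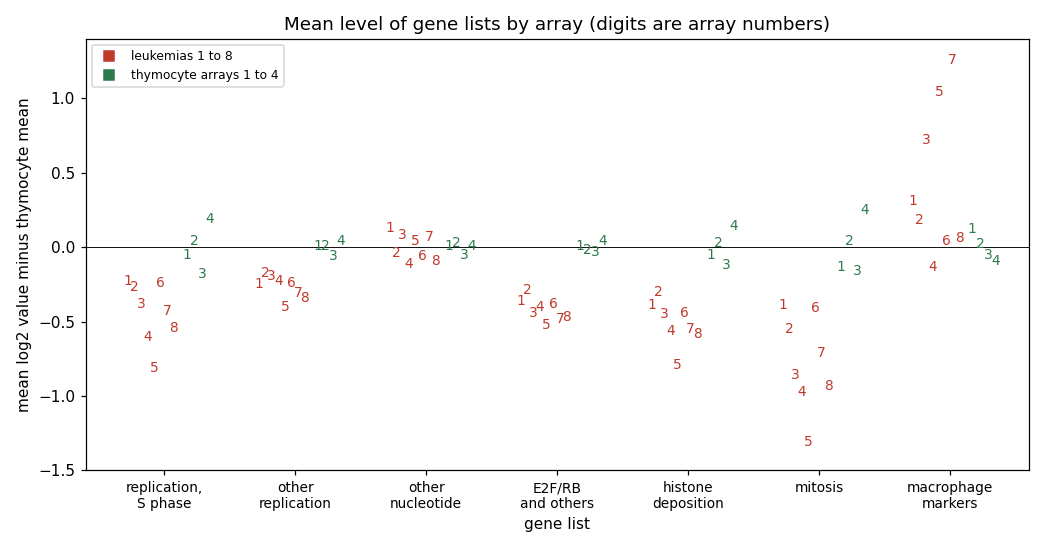
Mean over each gene list of the log2 value minus the thymocyte mean, for leukemias (red digits, 1 to 8) and thymocyte arrays (green digits, 1 to 4). The replication list ran from -0.81 to -0.23 in leukemias and from -0.18 to 0.19 in thymocytes, and the macrophage list was highest in leukemias 7, 5 and 3.

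The titles of 4 leukemias and 3 thymocyte arrays carry a number of 4 digits. Those of the other 4 leukemias carry a number of another form, and that of thymocyte array 4 carries none. No source used here says what the number stands for. The median change of the 38 genes was -0.45 within the arrays with 4 digits, -0.53 within the others and -0.46 with this class as a block. Of the 38 genes, 33 had a negative change within both classes, among them all 18 that fell. The classes split the same arrays on which the 18 were called, so their signs are no independent support. The count lower was 17, 0 and 23 in the same order, and the second of these fits, with 1 thymocyte array, called only 3 genes lower and 1 higher of all 8251.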

How the data were processed

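Gene expression was measured in thymus cell suspensions on 12 Affymetrix arrays. The deposited values are intensities on a linear scale, 1 per probe set and array, and come from RMA as run by the authors, per the submitters' processing notes, with no version stated. Array medians lay between 66.48 and 70.18, and values were taken to log2 with no offset or further normalization.

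Of 12488 probe sets, 66 Affymetrix controls were left out. A single gene was annotated for 10833 probe sets, 8251 genes in all, of which 8237 had their gene identifier in the RefSeq table of GRCm38.p6. Each gene was represented by its brightest probe set over all arrays. Groups were compared with limma 3.58.1 in R 4.3.3 (lmFit, eBayes, no covariate), two-sided, with Benjamini-Hochberg adjustment over all genes. Every adjusted p of a gene comes from this limma model, or from its variant where the sentence names one. The fit was tested on simulated data. Near the control level means that the mean of each group was under the 95th percentile of 19 control probe sets for non-mouse transcripts. Values per array are given for the genes of each role with the largest moderated statistic and for the one nearest to no change. Those of Mcm5, Lig1, Rrm1, Gmnn and Chaf1b, and the rising genes and Rrm2b detail in the further lists, were added after their values were seen. The planned protein motif search was not run. The members and lists were chosen with earlier results of these data known. Single arrays were left out in turn, and other normalizations, variance models, probe set choices, tests and thresholds were tried.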

Additional observations from a re-analysis of the deposited data

Results flagged for a closer look

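Each of the 38 genes, and the mean scores of the replication and mitosis lists, were checked for an array far from the rest of its group. Of 80 groups of values 3 had such an array, and about 1 in 20 is found by chance. Leukemia 5 had an Mcm4 value of 7.53, where the next lowest leukemia had 8.01 and the highest 8.38. It also had an Mcm7 value of 8.57, where the next lowest had 9.16 and the highest 9.61. Leukemia 3 had an Mcm6 value of 3.79, where the next lowest had 4.01 and the highest 4.18, all near the control level.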

How the results depend on the processing

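No paired analysis was possible because the labels give no number shared between leukemias and thymocyte arrays. The median change of the 38 genes stayed negative in every alternative run, and from -0.47 to -0.36 when 1 array was left out. The number of genes lower was 9 to 21 when 1 array was left out. It was 11 with the macrophage score as a covariate, 10 by the exact rank-sum permutation test, 9 at an adjusted p under 0.01, and 0 in the arrays without a title number of 4 digits. It was 1 against a 1.5-fold change with limma's treat, the gene being Rrm2. The number of genes higher was 0 to 1 when 1 array was left out, 1 with array weights, 1 in the arrays with 4 digits and 1 with the macrophage covariate, the gene being Chaf1b each time. The causes were not tested, apart from the fewer arrays and the stricter thresholds that some alternatives use by construction. Over single genes, none of the 18 that fell changed sign in any alternative, and 9 of them passed in every fit without 1 array. The alternatives reuse the arrays on which these 18 were called, so a kept sign is no independent support. Arrays carry no read depth: Mcm6, Orc1 and Ccne2 are limited by signals below the control level.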
